A study of Mus musculus with 22 samples.

Results

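The effect of neutralising interleukin-5 (IL-5) on gene expression was compared between stage IV, the latest, and stage III eosinophils of mouse bone marrow. The quantity described is a difference of differences, the change under an antibody against IL-5 at stage IV minus the same change at stage III. It was chosen by the groups in the sample titles and rests on 12 of the 22 libraries of the study, 3 in each of 4 groups: stage IV anti-IL5, stage IV isotype, stage III anti-IL5 and stage III isotype. All donors were C57BL6 wild-type mice and all had received 400 ng of interleukin-33 (IL-33) into the peritoneum on each of 7 days, controls included. From the last IL-33 injection on, mice received 3 daily injections of 400 µg of the antibody against IL-5 or of a control isotype. Before sorting, cells carrying CD45R, Ly6G, NK1.1 or CD90.2 were removed. The sort used CD117, CD200R3, CD55 and PIR-A/B together with Siglec-F, F4/80 and CD29, and reached a purity of 95% or more. Every group is thus a set of marrow cells of IL-33 treated mice. The labels give neither the age of the mice nor whether libraries of 1 group came from separate animals. The p-values therefore measure only how far these samples spread, which may be technical.

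IL-5 is the cytokine on which eosinophils depend for expansion and survival. Its receptor joins the alpha chain Il5ra to the common beta chain Csf2rb and signals through JAK kinases to STAT5, which switches on feedback inhibitors (Cish, Socs2), the kinase Pim1 and members of the Bcl2 family. IL-33 acts through Il1rl1 and raises IL-5 production in several tissues. As eosinophils mature they stop dividing, and the transcripts of their granule proteins, made in bulk in the endoplasmic reticulum, decline. Mature cells are marked by the chemokine receptor Ccr3.

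The values analysed are raw counts per gene, given here as CPM, the count scaled to a common library size. Depth ran between 8341704 and 14781250 gene counts per library, in which 12359 to 12842 genes were detected, and a count of 3 in a library corresponds to 0.227 to 0.382 CPM. Eosinophil markers were present in all 4 groups (Siglecf at 432 CPM or more in each library). Hba-a1, Hbb-bt, Hbb-bs (globins) and Ncr1 (natural killer cells) were listed at 0 in all 12. Other markers of erythroid and lymphoid cells were detected. At stage III the erythroid gene Alas2 reached 4.22 CPM, the T cell gene Cd3d 13.1 CPM and the B cell gene Cd79b 44.1 CPM. Other markers of T and B cells were lower there. The T cell gene Cd3e reached 0.192 CPM, and the B cell genes Cd79a, Ebf1 and Ms4a1 reached 8.19, 0.862 and 0 CPM. The first principal component of the 12 libraries (51.2% of the variance) separated the stages. On the second (10.7%), anti-IL5 libraries lay at -15.9 to -11.7 and isotype libraries at 19.4 to 25.1 at stage IV, and at stage III anti-IL5 libraries lay at -49.2 to -28.1 and isotype libraries at 19.8 to 37.3.

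At stage IV, 130 of 12387 genes tested (1.05%) were called for anti-IL5 against isotype (edgeR quasi-likelihood test, Benjamini-Hochberg adjusted p under 0.05), 23 higher and 107 lower (0.864%). At stage III 789 were called (6.37%), 163 higher and 626 lower (5.05%). The share called at stage IV was 0.55% without isotype replicate 2, 0.647% without anti-IL5 replicate 2 and 0.663% without anti-IL5 replicate 3. The share called at stage III was 2.74% without isotype replicate 3, 3.96% without anti-IL5 replicate 2 and 2.49% without anti-IL5 replicate 3. Genes called at both stages numbered 42, which is 32.3% of the stage IV calls and 5.32% of the stage III calls, and 0 of them moved in opposite directions.

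The difference itself was called for 79 genes (0.638%). Of these, 67 (0.541%) were positive, meaning that the change under anti-IL5 was more upward or less downward at stage IV, and 12 (0.0969%) were negative. At an unadjusted p under 0.05 there were 1265 genes. The positive genes had a median log2 fold change under anti-IL5 of 0.40 at stage IV and -1.53 at stage III. The negative genes had medians of -1.36 at stage IV and 0.98 at stage III. In 62 of the 67 positive genes the highest of the 4 group means was that of stage III isotype cells, a group that is highest in 33.2% of all genes tested. In 10 of the 12 negative genes stage IV isotype cells were highest, for which the share over all genes tested was not computed. Stage III isotype enters the difference with a plus sign and stage IV isotype with a minus sign. Positive and negative calls thus favour genes high in these groups, and both counts only describe the called genes. Both stage effects are parts of the difference and share its libraries, so they are given side by side as a description of how each difference arose.

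**Figure D1:**
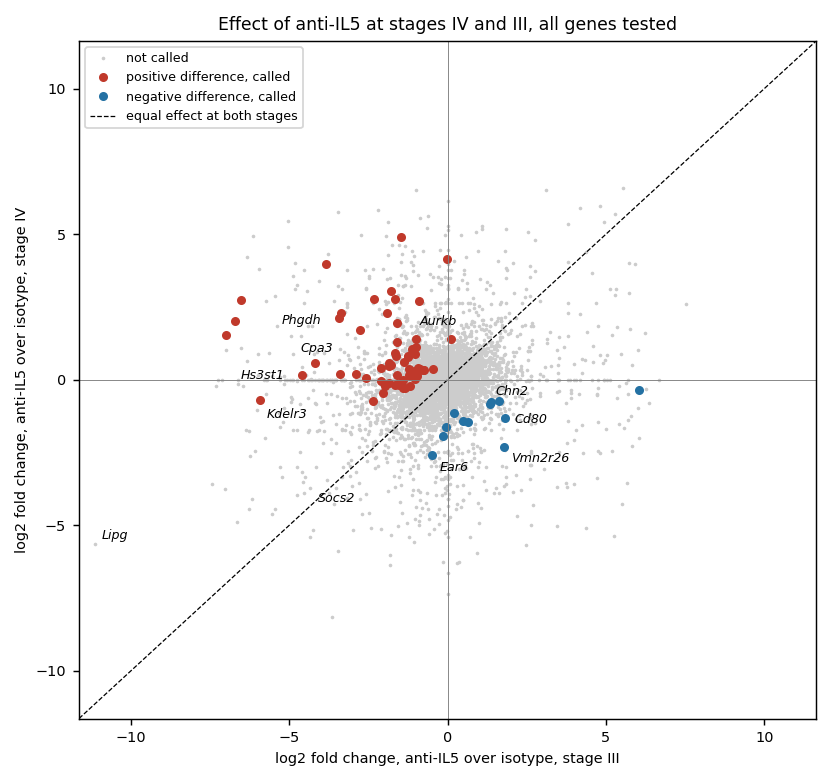
Log2 fold change of anti-IL5 over isotype at stage IV (vertical) against stage III (horizontal) for all 12387 genes tested. Red points are the 67 genes with a positive and blue points the 12 with a negative difference called by edgeR, and the dashed line marks equal effects. Red points lie mostly left of 0 and near 0 on the vertical axis.

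The number of calls depended on the fit. With the 12 libraries fitted alone, without the stage I and II libraries that otherwise help to estimate the spread, 17 genes were called, 8 positive and 9 negative, and 14 of the 79 were among them. Limma-voom called 26, of which 13 were positive and 13 negative, and kept 21 of the 79. DESeq2 called 260 and kept all 79. Leaving out 1 library at a time gave 38 calls without stage IV isotype replicate 2, 46 without stage III anti-IL5 replicate 3, 49 without stage IV anti-IL5 replicate 2 and 50 without stage III isotype replicate 3. The call held in all 12 such fits for 27 of the 79 genes, and 0 turned direction. A set of 13 genes kept its call under all 7 other settings tried (Cpa3, Tmem215, Krtcap2, Mcm7, Sdf2l1 and Calr among the positive, Chn2, Cd300ld, Ift57, Klra2, Vmn2r26, Siglecg and Cd80 among the negative), and 10 of these also in every fit without 1 library, all but Calr, Siglecg and Cd80. Krtcap2 and Siglecg are named because they complete this set, after their values were seen.

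The difference of smallest p was that of a mast cell and basophil gene. Cpa3 (chromosome 3, 20215616 to 20242209), the carboxypeptidase of mast cell granules, had 15.6, 12.01 and 9.62 CPM in stage IV anti-IL5 and 11.2, 5.99 and 7.59 CPM in stage IV isotype libraries, and 11.7, 14.04 and 9.35 CPM in stage III anti-IL5 and 168, 114 and 354 CPM in stage III isotype libraries. The stage III isotype libraries stood far above the other 9, which lay close together, and isotype replicate 3 was the highest. Cpa3 fell under anti-IL5 at stage III (log2 -4.18 ± 0.39 (SE), edgeR adjusted p = 3.43e-06) and had a log2 change of 0.58 ± 0.38 at stage IV (adjusted p = 0.735). The difference was 4.76 ± 0.54 on the log2 scale (adjusted p = 0.000272), and 4.17 to 5.06 over the fits without 1 library. Hdc, which makes histamine from histidine, had 116, 117 and 153 CPM in stage IV anti-IL5 and 112, 95.7 and 99.9 CPM in stage IV isotype libraries, and 575, 493 and 532 CPM in stage III anti-IL5 and 1010, 814 and 919 CPM in stage III isotype libraries. Its groups did not overlap at either stage, as was so for 15.8% of all genes tested at stage IV and 26% at stage III, and anti-IL5 was higher at stage IV and lower at stage III. The difference for Hdc was 1.11 ± 0.25 (edgeR adjusted p = 0.0451). It was kept without stage III isotype replicate 2 or stage IV anti-IL5 replicate 1 and lost without any other single library, with an adjusted p of up to 0.12.

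Cpa3 and Hdc were the called members, 2 higher and 0 lower, of 17 tested genes of the list of basophil and mast cell genes. The median difference of this list was 1.11, against -0.00277 over all genes tested, with 12 of 17 above 0. The summed level of the 26 listed genes was 605 to 678 CPM in stage IV anti-IL5 and 606 to 667 CPM in stage IV isotype libraries, and 1310 to 1580 CPM in stage III anti-IL5 and 2020 to 2850 CPM in stage III isotype libraries. Mcpt8, a protease of basophils, was at 0 to 1.96 CPM in stage IV anti-IL5 and 0 to 0.17 CPM in stage IV isotype libraries. At stage III Mcpt8 was at 0 to 1.16 CPM under anti-IL5 and 6.12 to 19.4 CPM in isotype libraries. The basophil protease Prss34 stayed at 2.06 CPM or less in all 12. In bulk samples fewer cells of a type and less RNA per cell cannot be told apart, and the part of basophils or mast cells in these differences was not tested.

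Hs3st1, a heparan sulfate sulfotransferase, had 3.58, 3.29 and 2.97 CPM in stage IV anti-IL5 and 2.72, 4.39 and 1.59 CPM in stage IV isotype libraries, and 1.08, 1.35 and 0.534 CPM in stage III anti-IL5 and 12.5, 7.61 and 51.8 CPM in stage III isotype libraries. Its stage III isotype libraries were all above the rest, with replicate 3 far above the other two. The difference was 4.75 ± 0.90 (edgeR adjusted p = 0.0155), and 3.5 to 5.19 without 1 library. Nkg7, a granule membrane protein of cytotoxic lymphocytes that belongs to the lists of primary granule and of lymphoid genes, had 1.79, 6.14 and 0.899 CPM in stage IV anti-IL5 and 3.06, 2.05 and 2.81 CPM in stage IV isotype libraries, and 19.6, 16.1 and 18.1 CPM in stage III anti-IL5 and 85.9, 92.1 and 220.2 CPM in stage III isotype libraries. Stage III isotype libraries were again highest, replicate 3 most of all, and the stage IV groups overlapped. The difference for Nkg7 was 3.08 ± 0.63 (edgeR adjusted p = 0.0234), and 1.88 with an adjusted p of 0.251 without stage IV anti-IL5 replicate 2. It was also lost without stage IV isotype replicates 2 or 3 or stage III anti-IL5 replicates 2 or 3. Nkg7 was the 1 gene called of 9 tested lymphoid genes, whose 29 listed members summed to 16.4 to 23.1 CPM in stage IV anti-IL5, 16.2 to 20.1 CPM in stage IV isotype, 67.9 to 83.5 CPM in stage III anti-IL5 and 135 to 278 CPM in stage III isotype libraries. Without Nkg7 the other 28 summed to 15.5 to 17 CPM in stage IV anti-IL5, 13.2 to 17.3 CPM in stage IV isotype, 49.9 to 63.8 CPM in stage III anti-IL5 and 48.9 to 58.3 CPM in stage III isotype libraries, so the gap at stage III was that of Nkg7. The median difference over the 9 tested genes was 0.0164. Beside Nkg7, Igfbp4, a binding protein of insulin-like growth factors, was called among 14 primary granule and early neutrophil genes. Igfbp4 averaged 2.15 ± 0.309 CPM in stage IV anti-IL5, 0.648 ± 0.470 CPM in stage IV isotype, 1.18 ± 0.291 CPM in stage III anti-IL5 and 8.31 ± 7.14 CPM in stage III isotype libraries (mean ± SD, n = 3 in each group, here and below), a difference of 4.51 ± 0.87 (edgeR adjusted p = 0.0157, 0.0581 without stage IV isotype replicate 2). The median difference of that list was 0.64. Its median change was 1.44 at stage IV (0 higher and 1 lower called, against 0.864% of all genes tested lower) and -0.48 at stage III (0 higher and 4 lower, against 5.05%). Its genes summed to 267 to 594 CPM in stage IV anti-IL5 and 305.9 to 409 CPM in stage IV isotype libraries, and 463 to 529 CPM in stage III anti-IL5 and 696 to 1250 CPM in stage III isotype libraries. Mpo, a defining gene of early neutrophils, had the opposite order at stage III, at 32.3 to 46.4 CPM under anti-IL5 and 2.71 to 23.3 CPM in isotype libraries. Elane was at 8.08 to 22.1 CPM under anti-IL5 and 1.4 to 10.8 CPM in isotype libraries there, with overlap (neither was called). Prtn3 (2.35 to 14.2 and 0.262 to 4.2 CPM) and Ctsg (0.981 to 3.21 and 0.7 to 2.15 CPM) overlapped as well. The part of lymphoid or early neutrophil cells was not tested.

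Genes of the secretory pathway made up the next group. Of 54 tested genes of protein folding and transport in the endoplasmic reticulum, 4 were called positive and 0 negative (Calr, Sdf2l1, Kdelr3 and Pdia6), with a median difference of 0.42 and 47 of 54 above 0. The median change under anti-IL5 was -0.14 at stage IV, where 0 of the 54 rose and 1 fell, and -0.51 at stage III, where 0 rose and 23 fell. For this list and those below, the share of all genes tested that fell was 0.864% at stage IV and 5.05% at stage III. The summed level was 7900 to 8110 CPM in stage IV anti-IL5 and 9000 to 9340 CPM in stage IV isotype libraries, and 7930 to 9030 CPM in stage III anti-IL5 and 12800 to 14200 CPM in stage III isotype libraries.

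The promoters of Calr and Pdia6 are shown because each holds the endoplasmic reticulum stress element, CCAAT and CCACG set 9 bases apart, to which ATF6 is known to bind with NF-Y. They run from 250 bases before to 50 after the gene start, 5′ to 3′ on the gene's strand, from RefSeq on build GRCm38.p6, at chr8:84846882-84847181 on the minus strand for Calr and chr12:17266339-17266638 on the plus strand for Pdia6. Capitals mark the element, which lies on the opposite strand in Calr. Pdia6 was chosen for this display after its values were seen.
Calr: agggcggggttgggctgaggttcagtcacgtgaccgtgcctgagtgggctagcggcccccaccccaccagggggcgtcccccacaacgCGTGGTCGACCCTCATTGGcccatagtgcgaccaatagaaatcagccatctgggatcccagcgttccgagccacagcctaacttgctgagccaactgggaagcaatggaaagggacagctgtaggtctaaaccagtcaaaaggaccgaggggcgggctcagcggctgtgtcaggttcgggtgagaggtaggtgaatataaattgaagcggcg
Pdia6: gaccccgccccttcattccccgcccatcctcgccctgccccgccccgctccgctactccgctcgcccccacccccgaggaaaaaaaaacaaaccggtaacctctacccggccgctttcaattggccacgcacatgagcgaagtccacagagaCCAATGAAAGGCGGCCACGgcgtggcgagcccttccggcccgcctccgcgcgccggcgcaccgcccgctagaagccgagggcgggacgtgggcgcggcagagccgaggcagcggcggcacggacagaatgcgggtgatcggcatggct

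Searched on both strands, this element was found in 9 of the 42 secretory pathway genes with a promoter entry (21.4%), in 2 of 51 genes with a positive difference (3.92%) and in 20 of the 9792 genes tested that had an entry (0.204%). A match describes the letters and is neither a site nor a cause.

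Calr, the calcium-binding chaperone calreticulin (chromosome 8, 84842088 to 84846931), had 101, 118 and 115 CPM in stage IV anti-IL5 and 148, 123 and 118 CPM in stage IV isotype libraries, and 111, 136 and 107 CPM in stage III anti-IL5 and 389, 419.6 and 592 CPM in stage III isotype libraries. Stage III isotype libraries held all the high values, and the stage III anti-IL5 libraries lay level with both stage IV groups. The difference was 1.77 ± 0.34 (edgeR adjusted p = 0.0155, 0.0531 without stage IV isotype replicate 2, and also lost without stage III anti-IL5 replicate 3). Sdf2l1, part of a chaperone complex in the same compartment, had 67.9, 76.2 and 49.8 CPM in stage IV anti-IL5 and 76.1, 105 and 83.4 CPM in stage IV isotype libraries, and 44.4, 46.5 and 30.7 CPM in stage III anti-IL5 and 129.7, 178 and 196 CPM in stage III isotype libraries. Stage III isotype libraries were again highest, the lowest libraries were those under anti-IL5 at stage III, and the stage IV groups overlapped. The difference for Sdf2l1 was 1.60 ± 0.29 (edgeR adjusted p = 0.0142). Kdelr3, a receptor that returns proteins to the endoplasmic reticulum, had 0.954, 0.534 and 1.53 CPM in stage IV anti-IL5 and 0.766, 2.65 and 1.499 CPM in stage IV isotype libraries, and 0, 0 and 0.445 CPM in stage III anti-IL5 and 7.38, 12.2 and 11.1 CPM in stage III isotype libraries. A total of 5 counts, all from 1 library, stood in the stage III anti-IL5 group, so the size of the Kdelr3 difference, 5.23 ± 1.05 (edgeR adjusted p = 0.019), is loosely fixed and was 4.7 to 8.99 without 1 library. The call was lost without stage III anti-IL5 replicate 2 or stage IV anti-IL5 replicate 3 (adjusted p up to 0.0649). The disulfide isomerase Pdia6 had a difference of 0.99 ± 0.23 (edgeR adjusted p = 0.0451), which was kept without stage III isotype replicate 1 and lost without any other single library (up to 0.143).

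**Figure D2:**
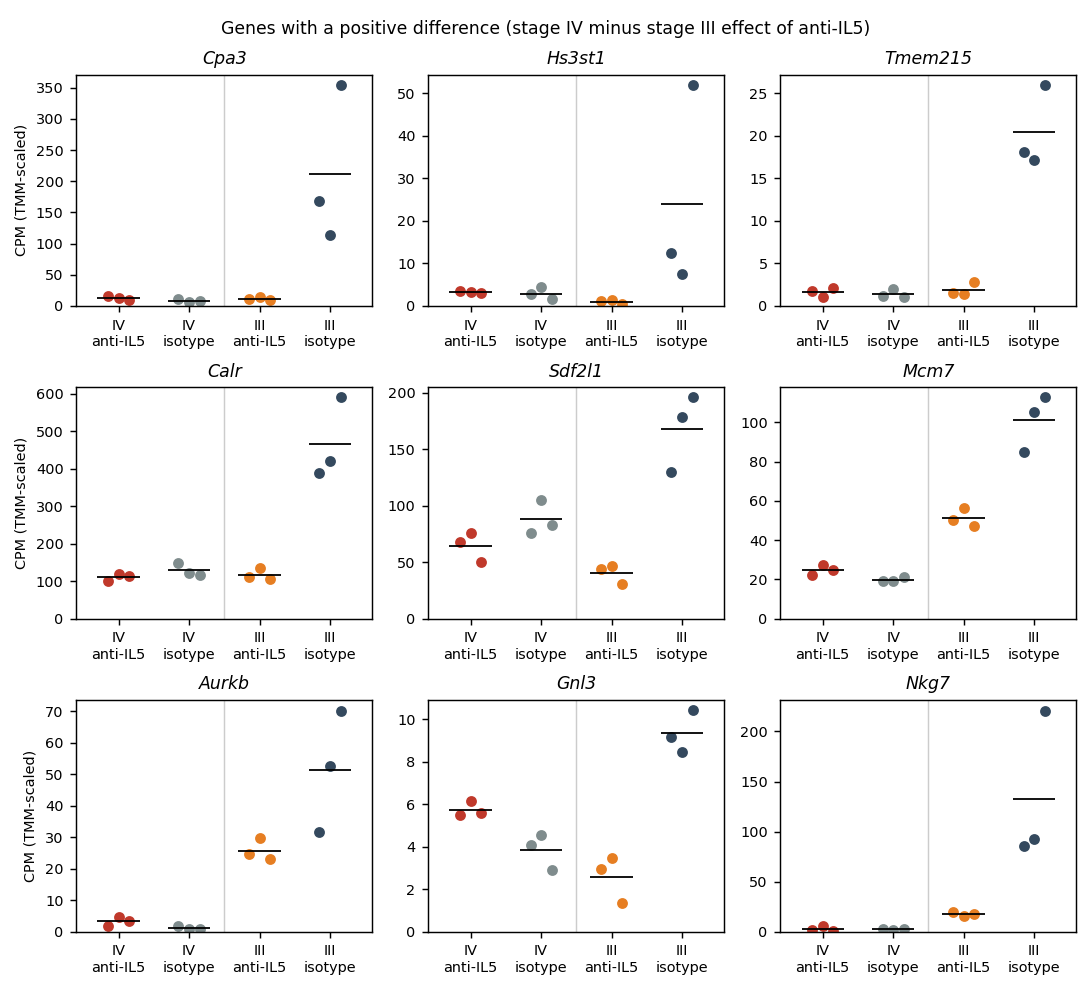
CPM of 9 genes with a positive difference in the 12 libraries. Points are libraries, horizontal bars are means of 3, and the axes start at 0. Stage III isotype libraries are highest in each of the 9 genes.

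Replication genes differed in the same direction. Of 57 tested genes of S phase and DNA replication, 6 were called positive and 0 negative (Mcm6, Mcm7 and Dut among them), with a median difference of 1.07 and 54 of 57 above 0. Under anti-IL5 the median change was 0.04 at stage IV, with 0 called, and -1.06 at stage III, with 31 lower and 0 higher. Summed levels were 1360 to 1540 CPM in stage IV anti-IL5 and 1170 to 1380 CPM in stage IV isotype libraries, and 1720 to 2120 CPM in stage III anti-IL5 and 3060 to 3730 CPM in stage III isotype libraries. The level of these genes at stage III under anti-IL5 thus lay between that of stage III isotype cells and that of both stage IV groups.

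Promoters of Mcm6 and Mcm7, which encode subunits of the replicative helicase, are shown for their E2F type letters, TTTGGCGC or TTTCGCGC on either strand, through which E2F factors are known to drive S phase genes. The windows are as above, at chr1:128359656-128359955 for Mcm6 and chr5:138171834-138172133 for Mcm7, both on the minus strand. Capitals mark the matches, 3 in Mcm6, of which the upstream pair overlap, and 1 in Mcm7.
Mcm6: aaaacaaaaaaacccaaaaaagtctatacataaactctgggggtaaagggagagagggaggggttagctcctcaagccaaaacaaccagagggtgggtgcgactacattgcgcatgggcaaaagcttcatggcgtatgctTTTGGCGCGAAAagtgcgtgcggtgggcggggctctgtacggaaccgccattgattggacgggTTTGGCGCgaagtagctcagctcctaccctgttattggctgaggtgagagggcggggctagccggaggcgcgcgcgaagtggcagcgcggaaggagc
Mcm7: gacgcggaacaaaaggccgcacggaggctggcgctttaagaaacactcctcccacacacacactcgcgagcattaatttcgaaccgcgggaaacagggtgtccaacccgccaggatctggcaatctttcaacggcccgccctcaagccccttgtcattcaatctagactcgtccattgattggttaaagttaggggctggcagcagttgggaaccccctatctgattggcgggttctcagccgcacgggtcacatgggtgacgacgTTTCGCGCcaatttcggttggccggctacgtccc

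Such letters occurred in 13 of 44 S phase genes with an entry (29.5%), in 3 of 51 genes with a positive difference (5.88%) and in 179 of all 9792 (1.83%). For 2 further motifs, STAT type letters TTCNNNGAA were found in 3 of 51 positive genes (5.88%) and 828 of 9792 (8.46%), and the E-box CACGTG in 12 of 51 (23.5%) and 1169 of 9792 (11.9%).

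Mcm7 had 22.1, 27.4 and 25.1 CPM in stage IV anti-IL5 and 19.2, 19.2 and 21.4 CPM in stage IV isotype libraries, and 50.3, 56.1 and 47.2 CPM in stage III anti-IL5 and 85.03, 105 and 113 CPM in stage III isotype libraries. Anti-IL5 libraries were all above isotype libraries at stage IV and all below them at stage III. The difference was 1.30 ± 0.21 (edgeR adjusted p = 0.00884), with a log2 change of 0.32 ± 0.15 at stage IV (adjusted p = 0.543) and -0.98 ± 0.15 at stage III (adjusted p = 0.000451). Mcm6 had 25.6, 43.4 and 34.7 CPM in stage IV anti-IL5 and 24.4, 34.7 and 36.1 CPM in stage IV isotype libraries, and 105, 94.7 and 70.2 CPM in stage III anti-IL5 and 191, 193 and 226 CPM in stage III isotype libraries. Its stage IV groups overlapped and its stage III groups did not. The difference for Mcm6 was 1.31 ± 0.25 (edgeR adjusted p = 0.0155, 0.0517 without stage IV anti-IL5 replicate 2). Dut, which removes dUTP from the nucleotide pool, averaged 7.15 ± 1.70 CPM in stage IV anti-IL5, 5.54 ± 0.821 CPM in stage IV isotype, 17.2 ± 4.27 CPM in stage III anti-IL5 and 40.04 ± 7.51 CPM in stage III isotype libraries, a difference of 1.57 ± 0.30 (edgeR adjusted p = 0.0155). Cdk4, the kinase that starts the passage from G1 to S phase, was the 1 gene called of 31 tested G1 regulators. That list as a whole did not share its direction, with a median difference of -0.23 and 13 of 31 above 0. Cdk4 averaged 28.1 ± 4.64 CPM in stage IV anti-IL5, 24.1 ± 3.08 CPM in stage IV isotype, 31.6 ± 5.85 CPM in stage III anti-IL5 and 67.4 ± 11.7 CPM in stage III isotype libraries, a difference of 1.31 ± 0.24 (edgeR adjusted p = 0.015).

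Among 57 genes of G2/M phase and mitosis 1 was called positive (Aurkb) and 0 negative, with a median difference of 0.93 and 54 of 57 above 0. The median change was 0.18 at stage IV, with 0 called, and -0.70 at stage III, with 6 of 57 lower. At stage III 5.05% of all genes tested were lower. Aurkb, the kinase of the chromosomal passenger complex, had 1.67, 4.63 and 3.42 CPM in stage IV anti-IL5 and 1.96, 0.985 and 0.843 CPM in stage IV isotype libraries, and 24.6, 29.7 and 22.98 CPM in stage III anti-IL5 and 31.7, 52.8 and 70.03 CPM in stage III isotype libraries. Levels were low at stage IV, where the groups overlapped, and all stage III isotype libraries lay above the stage III anti-IL5 libraries. The difference was 2.38 ± 0.47 (edgeR adjusted p = 0.0166, up to 0.0842 without 1 library), and the call was lost without stage IV isotype replicates 2 or 3 or stage IV anti-IL5 replicate 2. Ercc6l, a translocase of anaphase DNA bridges that is outside this list, averaged 2.65 ± 1.34 CPM in stage IV anti-IL5, 0.673 ± 0.156 CPM in stage IV isotype, 3.50 ± 2.19 CPM in stage III anti-IL5 and 10.6 ± 1.95 CPM in stage III isotype libraries. Its difference of 3.54 ± 0.78 (edgeR adjusted p = 0.0399) was kept without stage III anti-IL5 replicate 2 or stage IV anti-IL5 replicate 3 and lost without any other single library. The proliferation marker Mki67 averaged 9.27 ± 0.652 CPM in stage IV anti-IL5, 11.4 ± 4.47 CPM in stage IV isotype, 60.1 ± 21.6 CPM in stage III anti-IL5 and 119 ± 16.8 CPM in stage III isotype libraries and was not called (difference 0.70 ± 0.46, edgeR adjusted p = 0.662). Replication-dependent histones had a median difference of 0.85 with 0 of 53 called.

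Genes of ribosome assembly and of serine metabolism gave 3 and 2 positive calls, and 0 negative. None of these calls was kept with the 12 libraries alone or with limma-voom. In the list of 56 ribosome biogenesis genes the median difference was 0.45, with a median change of -0.19 at stage IV (0 called) and -0.60 at stage III (1 higher and 25 lower). Gnl3, the nucleolar GTPase nucleostemin (chromosome 14, 31012433 to 31019131), had 5.49, 6.14 and 5.57 CPM in stage IV anti-IL5 and 4.08, 4.55 and 2.90 CPM in stage IV isotype libraries, and 2.94, 3.46 and 1.34 CPM in stage III anti-IL5 and 9.16, 8.48 and 10.4 CPM in stage III isotype libraries. Anti-IL5 libraries were above isotype libraries at stage IV and below them at stage III, without overlap. The difference was 2.43 ± 0.38 (edgeR adjusted p = 0.0059). Nop58, a core protein of the box C/D ribonucleoproteins that guide rRNA methylation, had 13, 12.8 and 10.6 CPM in stage IV anti-IL5 and 13.4, 16.4 and 10.6 CPM in stage IV isotype libraries, and 6.57, 9.23 and 4.81 CPM in stage III anti-IL5 and 22.1, 20.4 and 19.2 CPM in stage III isotype libraries. Stage IV groups overlapped, and at stage III every anti-IL5 library was below every isotype library, giving a difference for Nop58 of 1.43 ± 0.28 (edgeR adjusted p = 0.0155). Rcl1, which acts in 18S rRNA processing, averaged 7.98 ± 2.15 CPM in stage IV anti-IL5, 8.61 ± 0.609 CPM in stage IV isotype, 2.57 ± 0.581 CPM in stage III anti-IL5 and 9.23 ± 3.78 CPM in stage III isotype libraries, a difference of 1.74 ± 0.39 (edgeR adjusted p = 0.0451) that was kept without stage III isotype replicate 1, stage III anti-IL5 replicate 1 or stage IV anti-IL5 replicate 1 and lost without any other single library.

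Phgdh, the first enzyme of serine synthesis, and Shmt1, which passes a carbon from serine to folate, were called among 27 genes of serine and one-carbon metabolism (median difference 0.82). The median change was -0.03 at stage IV (0 higher and 1 lower) and -0.86 at stage III (0 higher and 10 lower). The summed levels of the list overlapped at both stages. They were 929 to 1080 CPM in stage IV anti-IL5 and 912 to 1080 CPM in stage IV isotype libraries. At stage III they were 1170 to 1680 CPM under anti-IL5 and 1360 to 1560 CPM in isotype libraries. Phgdh averaged 1.68 ± 1.11 CPM in stage IV anti-IL5, 0.378 ± 0.269 CPM in stage IV isotype, 0.746 ± 0.245 CPM in stage III anti-IL5 and 8.09 ± 5.48 CPM in stage III isotype libraries, a difference of 5.54 ± 1.06 (edgeR adjusted p = 0.0159, 0.0848 without stage IV anti-IL5 replicate 2). Shmt1 had 24 counts in stage IV anti-IL5 libraries and 3 in stage IV isotype libraries, a ratio of 9.27 after scaling (95% counting interval 2.82 to 48.1). Its mean at stage III was 1.11 CPM under anti-IL5 and 3.85 CPM in isotype libraries. The difference for Shmt1 had an edgeR adjusted p of 0.0155 (0.0581 without stage IV isotype replicate 2), and its fitted size depends on the prior count. Both genes were thus near the floor at stage IV.

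Of the remaining large positive differences, Tmem215, a transmembrane protein, had 1.79, 1.07 and 2.07 CPM in stage IV anti-IL5 and 1.19, 2.05 and 1.03 CPM in stage IV isotype libraries, and 1.57, 1.35 and 2.85 CPM in stage III anti-IL5 and 18.1, 17.1 and 25.96 CPM in stage III isotype libraries. The 3 stage III isotype libraries stood apart from the other 9. The difference was 3.57 ± 0.48 (edgeR adjusted p = 0.00153). Dio2, which activates thyroid hormone, averaged 3.39 ± 0.996 CPM in stage IV anti-IL5, 1.36 ± 0.202 CPM in stage IV isotype, 4.20 ± 1.65 CPM in stage III anti-IL5 and 12.8 ± 6.68 CPM in stage III isotype libraries, a difference of 2.91 ± 0.54 (edgeR adjusted p = 0.0155). Vkorc1, which recycles vitamin K, averaged 7.87 ± 1.87 CPM in stage IV anti-IL5, 5.61 ± 1.13 CPM in stage IV isotype, 5.74 ± 1.17 CPM in stage III anti-IL5 and 20.6 ± 9.38 CPM in stage III isotype libraries, a difference of 2.33 ± 0.39 (edgeR adjusted p = 0.00884). Apex1, an endonuclease of base excision repair, averaged 5.12 ± 1.75 CPM in stage IV anti-IL5, 3.96 ± 2.01 CPM in stage IV isotype, 3.48 ± 0.401 CPM in stage III anti-IL5 and 14.9 ± 3.73 CPM in stage III isotype libraries, a difference of 2.50 ± 0.42 (edgeR adjusted p = 0.00884). In these 4 genes stage III isotype cells had the highest mean.

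The 12 genes with a negative difference were mostly highest in stage IV isotype cells. Chn2, a GTPase-activating protein for Rac (chromosome 6, 54039932 to 54301812), had 27.3, 38.1 and 39.6 CPM in stage IV anti-IL5 and 52.8, 67.1 and 66.2 CPM in stage IV isotype libraries, and 14.02, 15.3 and 16.1 CPM in stage III anti-IL5 and 5.98, 7.52 and 4.42 CPM in stage III isotype libraries. Anti-IL5 libraries were all below isotype libraries at stage IV and all above them at stage III. The difference was -2.16 ± 0.31 (edgeR adjusted p = 0.0032), with a log2 change of -0.82 ± 0.21 at stage IV (adjusted p = 0.0691) and 1.33 ± 0.23 at stage III (adjusted p = 0.00133). Chn2 was thus called at stage III and not at stage IV, while the difference between the stages was called.

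The receptors Cd300ld and Klra2 had the same crossed order of libraries. Cd300ld, an activating receptor of the CD300 family on myeloid cells, had 208, 221 and 166 CPM in stage IV anti-IL5 and 272, 375 and 355 CPM in stage IV isotype libraries, and 38.05, 63.4 and 52.3 CPM in stage III anti-IL5 and 19.9, 22.4 and 17.3 CPM in stage III isotype libraries. The difference was -2.12 ± 0.36 (edgeR adjusted p = 0.0105). Klra2, an inhibitory lectin-like receptor of the Ly49 family, had 31.7, 41.7 and 37.9 CPM in stage IV anti-IL5 and 61.3, 65.5 and 58.1 CPM in stage IV isotype libraries, and 9.22, 16.1 and 14.5 CPM in stage III anti-IL5 and 6.24, 3.59 and 3.23 CPM in stage III isotype libraries. For both, anti-IL5 libraries lay below isotype libraries at stage IV and above them at stage III without overlap, although the stage IV change alone was not called (edgeR adjusted p = 0.221 for Cd300ld and 0.416 for Klra2). The difference for Klra2 was -2.35 ± 0.45 (edgeR adjusted p = 0.0155). Vmn2r26, which belongs to a family of vomeronasal receptors, had 9.07, 5.34 and 5.39 CPM in stage IV anti-IL5 and 30.3, 36.97 and 31.3 CPM in stage IV isotype libraries, and 10, 4.42 and 7.04 CPM in stage III anti-IL5 and 3.06, 0.787 and 2.59 CPM in stage III isotype libraries. Stage IV isotype libraries held the high values and the other 3 groups lay at 10.0 CPM or less. The difference for Vmn2r26 was -4.09 ± 0.79 (edgeR adjusted p = 0.0155), and it fell at stage IV (log2 -2.32 ± 0.54, adjusted p = 0.0353). Cd300ld, Klra2 and Vmn2r26 belong to families with similar copies, and reads may have been split or lost between copies.

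Cd80, the ligand of CD28 and CTLA4 in T cell costimulation, was the 1 gene called, negative, of 52 tested eosinophil surface receptors, whose median difference was -0.53. Cd80 had 10.02, 5.25 and 8.81 CPM in stage IV anti-IL5 and 18.2, 18.6 and 23.04 CPM in stage IV isotype libraries, and 9.32, 10.3 and 11.4 CPM in stage III anti-IL5 and 1.40, 3.41 and 3.88 CPM in stage III isotype libraries. Its libraries did not overlap at either stage and moved in opposite directions. The difference was -3.13 ± 0.67 (edgeR adjusted p = 0.031), which was kept without stage III isotype replicates 2 or 3, stage III anti-IL5 replicate 1 or stage IV anti-IL5 replicate 1 and lost without any other single library (up to 0.0848). Pilra, an inhibitory receptor of the paired immunoglobulin-like type 2 family, had 16.3, 9.61 and 10.2 CPM in stage IV anti-IL5 and 22.8, 43.6 and 29.2 CPM in stage IV isotype libraries, and 9.22, 15.5 and 21.1 CPM in stage III anti-IL5 and 8.78, 10.6 and 13.1 CPM in stage III isotype libraries. It was lower under anti-IL5 at stage IV without overlap, and its stage III groups overlapped. The difference for Pilra was -1.90 ± 0.44 (edgeR adjusted p = 0.0451), kept without stage IV isotype replicate 1, stage III anti-IL5 replicate 1 or stage IV anti-IL5 replicate 1 and lost without any other single library (up to 0.169). The Pilra call was also lost when replicate number was added to the fit, within treatment (0.0635) or across treatments (0.0544).

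Id1, a dominant-negative partner of basic helix-loop-helix factors (chromosome 2, 152736251 to 152737410), had 68, 41.4 and 31.3 CPM in stage IV anti-IL5 and 112, 163 and 107 CPM in stage IV isotype libraries, and 252, 176 and 131 CPM in stage III anti-IL5 and 117, 133 and 112 CPM in stage III isotype libraries. At stage IV all anti-IL5 libraries were below all isotype libraries, and at stage III the groups overlapped. Id1 fell at stage IV (log2 -1.45 ± 0.27, edgeR adjusted p = 0.00542) and had a log2 change of 0.63 ± 0.26 at stage III (adjusted p = 0.163), a difference of -2.08 ± 0.38 (adjusted p = 0.0142). It was the 1 gene called, negative, among 29 tested IL-5/STAT5 targets (median difference -0.64) and among 54 transcription factors (median difference -0.25). Its family member Id2 was not called (-0.30 ± 0.23, edgeR adjusted p = 0.733).

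Ear6, an eosinophil-associated ribonuclease, was the 1 gene called, negative, of 22 tested granule protein genes, whose median difference was 0.01. Ear6 had 6.80, 1.96 and 2.61 CPM in stage IV anti-IL5 and 33.2, 18.03 and 14.5 CPM in stage IV isotype libraries, and 324, 267 and 223 CPM in stage III anti-IL5 and 414, 348 and 387 CPM in stage III isotype libraries. Levels at stage IV were far below those at stage III, and anti-IL5 libraries were lower at both stages. The difference was -2.09 ± 0.42 (edgeR adjusted p = 0.0202, up to 0.081 without 1 library), and the call was lost without stage IV isotype replicate 1 or stage IV anti-IL5 replicates 2 or 3. Ear genes are near-identical, so reads may be split among them. Ift57, a component of intraflagellar transport, had 7.396, 8.54 and 14.02 CPM in stage IV anti-IL5 and 42.6, 34.3 and 39.7 CPM in stage IV isotype libraries, and 19.7, 19.3 and 23.3 CPM in stage III anti-IL5 and 26.6, 21.96 and 20.04 CPM in stage III isotype libraries. It fell at stage IV (log2 -1.95 ± 0.23, edgeR adjusted p = 0.000108) with overlapping groups at stage III, a difference of -1.82 ± 0.32 (adjusted p = 0.0135). Cmtm3, a membrane protein with a MARVEL domain, averaged 32.7 ± 3.86 CPM in stage IV anti-IL5, 101 ± 18.1 CPM in stage IV isotype, 11.1 ± 2.63 CPM in stage III anti-IL5 and 11.5 ± 3.10 CPM in stage III isotype libraries. It fell at stage IV (log2 -1.63 ± 0.25, edgeR adjusted p = 0.0011), a difference of -1.57 ± 0.36 (adjusted p = 0.0451) that was kept without stage III isotype replicate 2, stage IV isotype replicate 1 or stage III anti-IL5 replicate 1 and lost without any other single library. The Cmtm3 call was also lost when replicate number was added to the fit, within treatment (0.0635) or across treatments (0.0561).

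**Figure D3:**
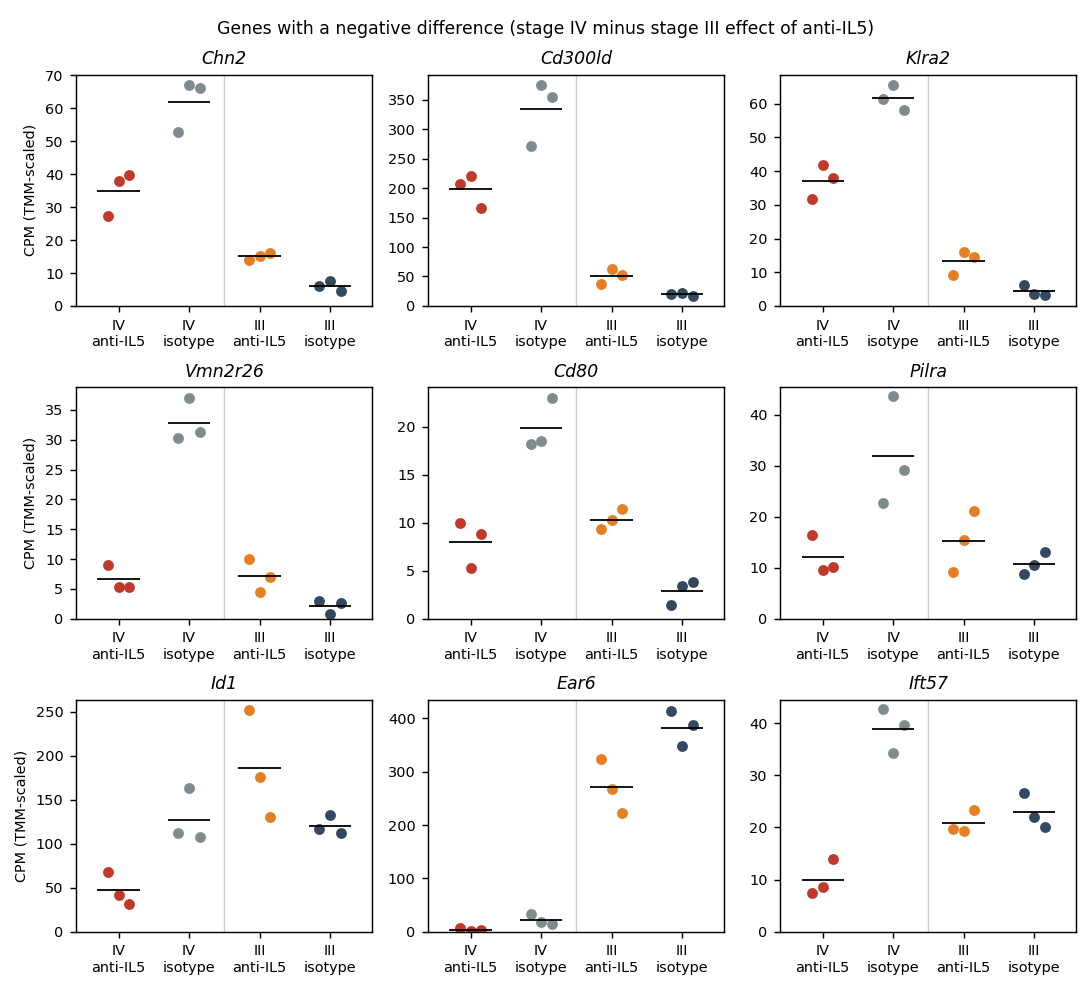
CPM of 9 genes with a negative difference in the 12 libraries. Points are libraries, horizontal bars are means of 3, and the axes start at 0. Stage IV isotype libraries are highest in Chn2, Cd300ld, Klra2, Vmn2r26, Cd80, Pilra and Ift57.

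Among 29 tested IL-5/STAT5 targets, 0 rose and 9 fell at stage IV, against 4 that rose and 7 that fell at stage III. Among 15 antiapoptotic genes 0 rose and 5 fell at stage IV, against 1 and 3 at stage III. Over all genes tested, 0.186% rose and 0.864% fell at stage IV, and 1.32% and 5.05% at stage III. The targets summed to 4670 to 5380 CPM under anti-IL5 and 5480 to 6500 CPM in isotype libraries at stage IV. At stage III these sums were 4320 to 5370 CPM and 3840 to 4260 CPM. In the same order, antiapoptotic genes summed to 1490 to 1680 and 1860 to 2120 CPM at stage IV, and 1310 to 1510 and 1270 to 1500 CPM at stage III. Counting genes of at least 10 CPM in the highest group, 38 were called at both stages in 1 direction with no call for the difference. Socs2, the feedback inhibitor (chromosome 10, 95383903 to 95417321), had 3.34, 1.07 and 1.71 CPM in stage IV anti-IL5 and 22.5, 26.3 and 30.5 CPM in stage IV isotype libraries, and 0.785, 0.577 and 0.267 CPM in stage III anti-IL5 and 6.37, 14 and 12.8 CPM in stage III isotype libraries. Anti-IL5 libraries were far below isotype libraries at both stages. Its log2 change was -3.72 ± 0.48 at stage IV and -4.34 ± 0.54 at stage III (edgeR adjusted p = 0.000175 and 6.74e-05), and the 95% interval of the difference was -0.81 to 2.05. Xbp1, a transcription factor of the unfolded protein response and of eosinophil development (chromosome 11, 5520641 to 5525993), had 115, 113 and 146 CPM in stage IV anti-IL5 and 323, 349 and 353 CPM in stage IV isotype libraries, and 96.2, 110.2 and 106 CPM in stage III anti-IL5 and 255, 232 and 290.1 CPM in stage III isotype libraries. It fell at both stages, by a log2 change of -1.46 ± 0.14 at stage IV and -1.31 ± 0.14 at stage III (edgeR adjusted p = 5.94e-06 and 6.01e-06), with a 95% interval of the difference of -0.53 to 0.25. An interval as narrow as that of Xbp1 limits the difference to less than 1.5-fold, whereas that of Socs2 leaves room for a wider one.

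The adenosine receptor Adora2b averaged 2.73 ± 2.82 CPM in stage IV anti-IL5, 110.2 ± 28.5 CPM in stage IV isotype, 5.10 ± 3.50 CPM in stage III anti-IL5 and 104 ± 6.62 CPM in stage III isotype libraries, and its difference was -1.04 ± 0.75 (95% interval -2.60 to 0.51). Lrp12, of the low-density lipoprotein receptor family, averaged 9.63 ± 7.06 CPM in stage IV anti-IL5, 110.1 ± 15.2 CPM in stage IV isotype, 1.32 ± 1.03 CPM in stage III anti-IL5 and 32.2 ± 4.75 CPM in stage III isotype libraries (difference 1.05 ± 0.69, interval -0.39 to 2.49). The antiapoptotic Bcl2a1a, which has near-identical copies, averaged 16.8 ± 5.51 CPM in stage IV anti-IL5, 108 ± 9.94 CPM in stage IV isotype, 3.13 ± 1.73 CPM in stage III anti-IL5 and 15.4 ± 2.32 CPM in stage III isotype libraries (difference -0.40 ± 0.47, interval -1.37 to 0.57). Sntb1, an adaptor of the dystrophin complex, rose at both stages and averaged 19.6 ± 0.772 CPM in stage IV anti-IL5, 4.50 ± 0.382 CPM in stage IV isotype, 34.2 ± 1.53 CPM in stage III anti-IL5 and 10.7 ± 1.82 CPM in stage III isotype libraries (difference 0.45 ± 0.35, interval -0.28 to 1.17). These 4 genes were called at both stages in 1 direction. Cish had a difference of -1.02 ± 0.49 (interval -2.03 to -0.01, edgeR adjusted p = 0.485) and fell at both stages. Pim1 fell at stage III (edgeR adjusted p = 0.0169) and not past the threshold at stage IV (0.145), with a difference of 0.23 ± 0.39 (interval -0.59 to 1.05) that was not called. Bcl2 averaged 1.84 ± 0.857 CPM in stage IV anti-IL5, 8.61 ± 3.31 CPM in stage IV isotype, 20.3 ± 7.35 CPM in stage III anti-IL5 and 35.02 ± 0.458 CPM in stage III isotype libraries and fell at stage IV (log2 -2.24 ± 0.40, edgeR adjusted p = 0.00386), with a difference of -1.45 ± 0.51 that was not called (adjusted p = 0.251). Bcl2l1 fell at both stages (difference -0.30 ± 0.34, interval -1.001 to 0.40).

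Lipg, an endothelial-type lipase, had 2 counts in stage IV anti-IL5 and 141 in stage IV isotype libraries, and 2 counts in stage III anti-IL5 and 4868 in stage III isotype libraries. It was 60.8-fold lower under anti-IL5 at stage IV (95% counting interval 16.5 to 507) and 2710-fold lower at stage III (750 to 22400). These ratios rest on 2 counts each, their intervals cover counting error only, and the difference was not called (edgeR adjusted p = 0.57).

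Of the 22 tested granule protein genes, 3 fell at stage IV and 3 at stage III, and 0 rose at either. Over all genes tested, 0.864% fell at stage IV and 5.05% at stage III. Epx, eosinophil peroxidase, averaged 56.4 ± 29.2 CPM in stage IV anti-IL5, 389 ± 188 CPM in stage IV isotype, 4698 ± 1407 CPM in stage III anti-IL5 and 13873 ± 1669 CPM in stage III isotype libraries, and fell at both (log2 -2.79 ± 0.35 at stage IV and -1.56 ± 0.33 at stage III, edgeR adjusted p = 0.000175 and 0.00653). The difference of -1.23 ± 0.47 was not called (adjusted p = 0.308). Prg2, major basic protein, averaged 452 ± 231 CPM in stage IV anti-IL5, 1789 ± 517 CPM in stage IV isotype, 10762 ± 1465 CPM in stage III anti-IL5 and 16064 ± 2638 CPM in stage III isotype libraries. It fell at stage IV (edgeR adjusted p = 0.000576) and not past the threshold at stage III (0.228), and the difference of -1.41 ± 0.39 was not called (adjusted p = 0.115, 0.0196 without stage IV anti-IL5 replicate 1). Prg3, its homologue, had a difference of 0.12 ± 0.37 (interval -0.65 to 0.89). The serpin Serpinb10 rose at both stages and averaged 1.93 ± 0.529 CPM in stage IV anti-IL5, 0.144 ± 0.0601 CPM in stage IV isotype, 38.3 ± 5.40 CPM in stage III anti-IL5 and 1.66 ± 0.952 CPM in stage III isotype libraries (difference -0.91 ± 1.07, interval -3.13 to 1.31).

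The receptors and lineage factors fixed by name had no call for the difference. Il5ra had a difference of -0.02 ± 0.26 (interval -0.56 to 0.52), Csf2rb of -0.33 ± 0.27 (interval -0.89 to 0.23) and Il1rl1, the IL-33 receptor, of -0.51 ± 0.42 (interval -1.38 to 0.37). Ccr3 had -0.58 ± 0.49 (interval -1.60 to 0.45) and Siglecf -0.56 ± 0.19 (interval -0.97 to -0.16, edgeR adjusted p = 0.236). The eosinophil factors Gata1, Gata2 and Cebpe had differences of -0.46 ± 0.22, 0.62 ± 0.31 and -0.05 ± 0.22, the lipoxygenase Alox15 of -0.07 ± 0.33 and the repressor Bcl6 of -1.02 ± 0.59. Myc averaged 4.83 ± 3.38 CPM in stage IV anti-IL5, 9.45 ± 0.250 CPM in stage IV isotype, 3.23 ± 1.66 CPM in stage III anti-IL5 and 18.98 ± 4.70 CPM in stage III isotype libraries, fell at stage III (edgeR adjusted p = 0.000594) and had a difference of 1.56 ± 0.56 that was not called (adjusted p = 0.26, 0.0306 without stage IV anti-IL5 replicate 3). A missing call does not show that the effects at both stages were equal.

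**Figure D4:**
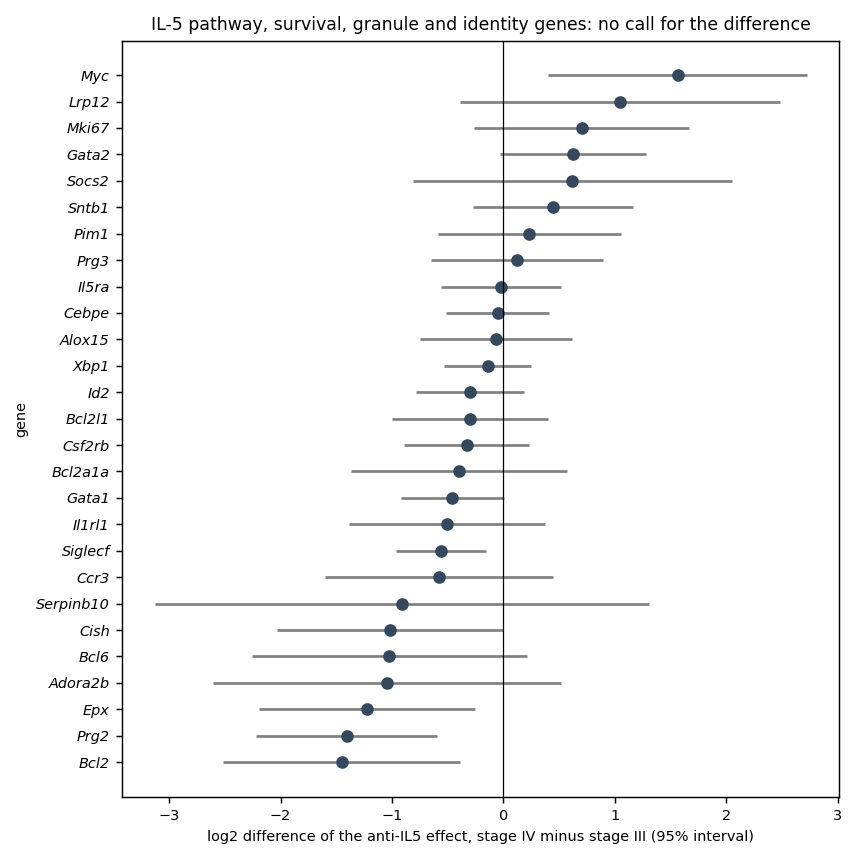
Difference of the anti-IL5 effect, stage IV minus stage III, on the log2 scale for 27 named genes without a call. Points are edgeR estimates and bars 95% intervals computed from the edgeR F statistic. Most of the bars cross 0, and Xbp1 has a narrow one.

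The other lists had 0 genes called for the difference. Their median differences were 0.38 for cholesterol and fatty acid synthesis (31 tested), 0.31 for cytosolic ribosomal proteins (81), 0.23 for mitochondrial ribosomal proteins (75), 0.18 for oxidative phosphorylation (78) and 0.12 for proteasome subunits (38). Interferon-stimulated genes had 0.25 (37 tested), mature neutrophil genes 0.08 (21), proapoptotic genes 0.02 (23) and erythroid and megakaryocyte genes 0.00489 (13). Mature neutrophil genes had a median change under anti-IL5 of 1.39 at stage IV and 1.10 at stage III. At stage IV 2 of 21 rose (S100a9 and Ngp), against 0.186% of all genes tested. At stage III S100a9 rose, against a share of 1.32%, and 0 fell at either stage. The genes of this list summed to 9970 to 11700 CPM in stage IV anti-IL5 and 7930 to 8740 CPM in stage IV isotype libraries. At stage III they summed to 15600 to 19700 CPM under anti-IL5 and 12100 to 16100 CPM in isotype libraries. S100a9 was at 121 to 193 CPM in stage IV anti-IL5 and 37.2 to 61.3 CPM in stage IV isotype libraries, and 668 to 934 CPM in stage III anti-IL5 and 288 to 419 CPM in stage III isotype libraries. Of the other mature neutrophil markers, Retnlg was also higher under anti-IL5 without overlap at both stages. S100a8, Ltf, Camp and Ngp were so at stage IV only. Ly6g and Mmp8 overlapped at both stages, with Ly6g at stage III at 20.7 to 28.2 CPM under anti-IL5 and 17.1 to 45.4 CPM in isotype libraries. The part of neutrophils in the effects at either stage was not tested. Negative medians were -0.65 for stem and progenitor genes (22 tested), -0.39 for antiapoptotic genes (15), -0.35 for the IL-5 receptor and related cytokine receptors (28), -0.20 for NF-kB and IL-33 response genes (30), -0.19 for glycolysis (27), -0.10 for monocyte, macrophage and dendritic cell genes (29) and -0.0992 for lysosome and autophagy (38).

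**Figure D5:**
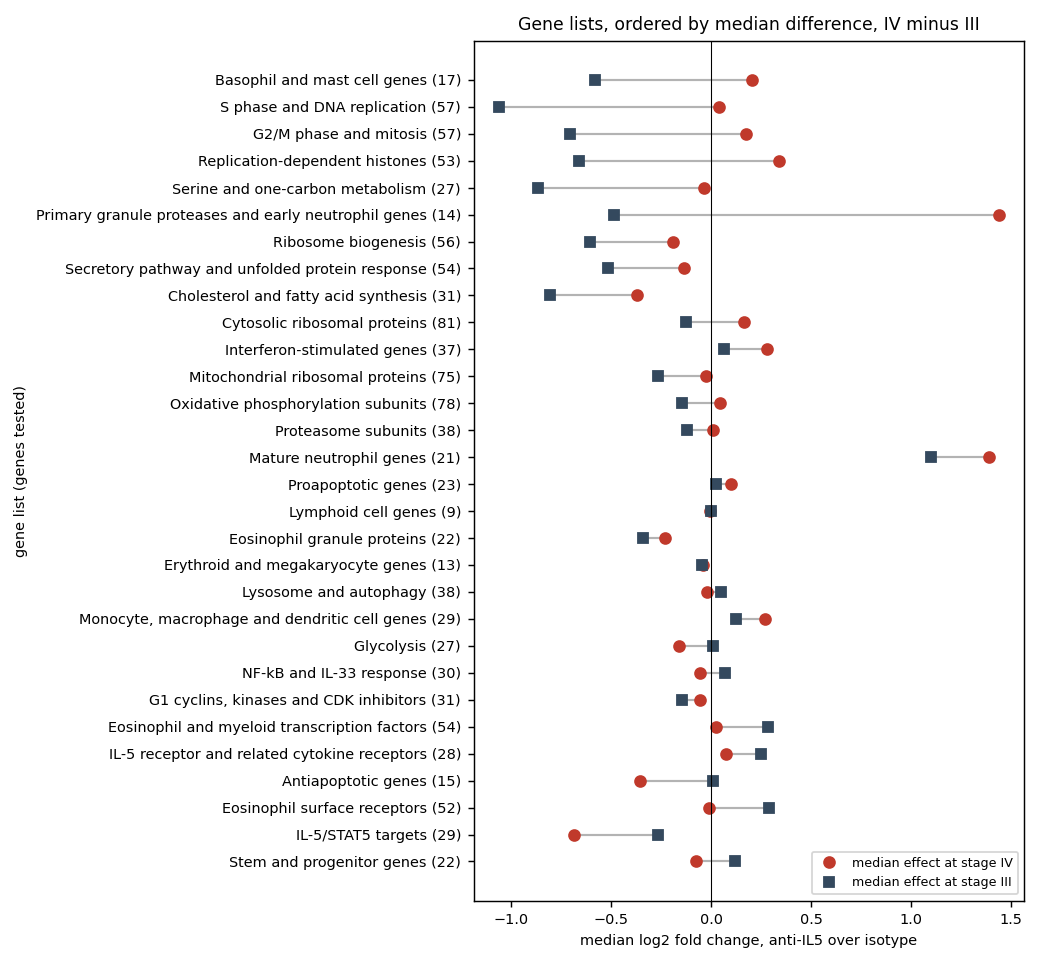
Median log2 fold change of anti-IL5 over isotype at stage IV (red circles) and stage III (dark squares) for 30 gene lists, with the number of genes tested in brackets, ordered by the median difference of their genes. S phase genes have medians of 0.04 at stage IV and -1.06 at stage III.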

How the data were processed

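RNA was measured by sequencing of full-length cDNA (SMART-Seq v4, 17 amplification cycles, then Nextera XT, per the labels' protocols). The authors deposited raw counts per gene symbol. STAR 2.6.1a, build mm10 and DESeq2 are named in the submitters' processing notes, DESeq2 without its role, while how reads were assigned to genes, with which annotation and strand setting, is not given in the sources used here. The kit does not mark strand, so reads of antisense or overlapping genes are indistinguishable. Lines naming no gene (no feature, 12.7% to 20.2% of counts; ambiguous, 1.86% to 2.2%) stayed out. All 22 libraries were fitted in edgeR 4.0.16 (R 4.3.3, quasi-likelihood, TMM, 8 groups of stage and treatment), which kept 12387 of 24982 genes. Limma 3.58.1 and DESeq2 1.42.0 served as alternatives, with another scaling, no filter, the 12 libraries alone, replicate blocks and fits without 1 library. No library was a copy of another. On counts simulated for this difference, 27 of 100 genes changed 2-fold and 82 of 100 changed 4-fold were called, beside 6 unchanged genes in the same run. CPM used TMM-scaled totals, and counting intervals cover counting error only. The members and the 30 gene lists were chosen with earlier results of these data known. Named genes were the 10 largest called differences in each direction with at least 10 CPM, up to 3 called members per list by p, 25 genes fixed by name, and up to 6 genes called alike at both stages. Gene positions are on GRCm38 and were matched by symbol.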

Additional observations from a re-analysis of the deposited data

Results flagged for a closer look

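The test of the difference between both stages called 79 genes, and every named gene among them is listed here with its log2 difference, stage IV minus stage III, because the effect of anti-IL5 differed between the stages by that test (edgeR adjusted p under 0.05). Positive values were found for Phgdh (5.54), Kdelr3 (5.23), Shmt1 (4.81), Cpa3 (4.76), Hs3st1 (4.75), Igfbp4 (4.51), Tmem215 (3.57), Ercc6l (3.54), Nkg7 (3.08), Dio2 (2.91), Apex1 (2.50), Gnl3 (2.43), Aurkb (2.38), Vkorc1 (2.33), Calr (1.77), Rcl1 (1.74), Sdf2l1 (1.60), Dut (1.57), Nop58 (1.43), Cdk4 (1.31), Mcm6 (1.31), Mcm7 (1.30) and Hdc (1.11). The value for Shmt1 depends on the prior count, since stage IV isotype libraries hold 3 counts. Negative values were found for Vmn2r26 (-4.09), Cd80 (-3.13), Klra2 (-2.35), Chn2 (-2.16), Cd300ld (-2.12), Ear6 (-2.09), Id1 (-2.08), Pilra (-1.90), Ift57 (-1.82) and Cmtm3 (-1.57).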

How the results depend on the processing

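The count of genes called for the difference (79) was 80 with DESeq2's size factors in edgeR, 85 without a filter, 260 with DESeq2, 26 with limma-voom and 17 with the 12 libraries alone, and 38 to 85 without 1 library. The share called at stage III (6.37%) was 10.5% with DESeq2 and 2.49% to 6.91% without 1 library, and that at stage IV (1.05%) was 2.07% with DESeq2, 1.63% with limma-voom and 0.55% to 1.24% without 1 library. With the 12 libraries alone the stage III calls split into 382 higher and 437 lower, against 163 and 626 in the fit of all libraries. Equal replicate numbers did not meet the rule for pairing, by which every correlation had to exceed 0.1. Deviations of same-numbered stage IV and III libraries correlated at 0.0954, 0.0969 and 0.114 under anti-IL5 and 0.124, 0.16 and 0.208 in isotype libraries. The isotype pairs alone were all above 0.1, and each of the 6 correlated best with its own number, a hint from the data and not from the design. With a replicate block within treatment the difference count was 117, and with 1 block across treatments it was 98. The calls of Pilra (edgeR adjusted p = 0.0635 and 0.0544) and Cmtm3 (0.0635 and 0.0561) were lost under both. The block within treatment gave 2.53% of genes at stage III, but there the treatments are compared as fitted for replicate 1 only. That share is therefore not the same quantity as the 6.37% of the main fit. Among named genes, Prg3 turned to -0.000922 with limma-voom. Without 1 library, Alox15 ranged between -0.22 and 0.19, Cebpe between -0.24 and 0.047, Prg3 between -0.38 and 0.33, Il5ra between -0.24 and 0.12 and Bcl2a1a between -0.74 and 0.0888. In the other settings 379 values of named genes kept direction and side of the threshold, 45 lost the call and 2 gained it. Prg2 was called with DESeq2 (adjusted p = 0.0262) and with the block within treatment (0.0204). The causes were not tested. Genes at a few CPM, such as Kdelr3 and Phgdh, are limited by depth.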

Other observations

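A few genes outside the rule for named genes, chosen after their values were seen, had other patterns. Emb, a membrane glycoprotein of the immunoglobulin superfamily, had 224, 288 and 312.2 CPM in stage IV anti-IL5 libraries and 207, 105 and 126 CPM in stage IV isotype libraries. At stage III it had 51.6, 92.6 and 96.5 CPM under anti-IL5 and 160, 221 and 140 CPM in isotype libraries. Anti-IL5 libraries were thus higher at stage IV and lower at stage III, without overlap, a difference of 2.02 ± 0.37 on the log2 scale (edgeR adjusted p = 0.0142). The Src family kinase Fyn showed the same order, with means of 47.2 CPM in stage IV anti-IL5, 25.7 CPM in stage IV isotype, 14.03 CPM in stage III anti-IL5 and 28.8 CPM in stage III isotype libraries, a difference of 1.92 ± 0.36 (edgeR adjusted p = 0.0155). Both kept the call in all 12 fits without 1 library. With the 12 libraries fitted alone both lost it (edgeR adjusted p = 0.0514 for Emb and 0.056 for Fyn). Siglecg, an inhibitory sialic acid receptor, had means of 280.2 CPM in stage IV anti-IL5, 626 CPM in stage IV isotype, 313.8 CPM in stage III anti-IL5 and 272 CPM in stage III isotype libraries, a difference of -1.36 ± 0.27 (edgeR adjusted p = 0.0173).

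Markers of other marrow cells differed between groups or libraries. Mpo, an enzyme of early neutrophils, ranged between 16.6 and 240 CPM in stage IV anti-IL5 libraries, 29 and 69.3 CPM in stage IV isotype libraries, 32.3 and 46.4 CPM in stage III anti-IL5 libraries and 2.71 and 23.3 CPM in stage III isotype libraries. Vcam1, a marker of marrow macrophages, was at 7.87 to 10.9 CPM in stage IV anti-IL5, 6.52 to 11.3 CPM in stage IV isotype, 216 to 362 CPM in stage III anti-IL5 and 533 to 934 CPM in stage III isotype libraries. The macrophage genes C1qa, C1qb and Cd5l reached at most 15.4, 28.5 and 5.34 CPM in any of the 12 libraries. The monocyte marker Ly6c2 was at 147 to 404 CPM in stage IV anti-IL5, 337 to 1130 CPM in stage IV isotype, 1190 to 1270 CPM in stage III anti-IL5 and 1460 to 2660 CPM in stage III isotype libraries. Csf1r was at 671 CPM or more at stage IV and 223 CPM or more at stage III, whereas Ccr2 and F13a1 reached at most 11.3 and 31.3 CPM.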
